A study of Mus musculus with 2 samples.

Results

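The genes described here are 9 members of the AP-1 transcription factor family, *Fos*, *Fosb*, *Fosl2*, *Jun*, *Junb*, *Jund*, *Atf3*, *Batf* and *Batf3*, chosen by name out of the 32285 genes counted. They were followed through tumor-infiltrating CD8+ T cells (CD8+ TIL) of lean and obese mice, measured as 1 single-cell RNA library per diet. The lean library came from male mice on normal chow (NC) and the obese library from male mice on a western diet (WD), all 16 weeks of age by the labels. All carried a transplanted B16 F0 tumor, a mouse melanoma line, and no genetic change or drug is labelled for either group. How many mice each library pooled is not given in the sources used here. TIL were enriched on CD8 beads and sorted on CD8 before droplet capture. The question was how diet-induced obesity alters CD8+ T cells inside the tumor.

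AP-1 is not 1 protein but a set of dimers. Proteins of the Fos, Jun, ATF and BATF groups pair through a leucine zipper and bind short DNA motifs with the adjacent basic region (bZIP). Antigen receptor signals reach them through MAP kinases, and *Fos*, *Fosb*, *Jun*, *Junb* and *Atf3* are immediate early genes, switched on within minutes without new protein synthesis. In T cells AP-1 dimers work beside NFAT on cytokine genes, while BATF pairs with Jun proteins and IRF4 and takes part in effector differentiation and exhaustion. Immediate early genes also respond to handling and enzymatic digestion of tissue. For TIL analysis the authors describe mechanical disruption of tumors and isolation in cold PBS, and name no enzyme for this step.

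The 9 genes lie on 6 mouse chromosomes, and all were found in the GENCODE annotation of GRCm38. *Fos* (chr12:85473890-85477273, plus strand) has 4 exons and lies near *Batf* (chr12:85686669-85709087, plus strand). *Batf3* (chr1:191097847-191108945) and *Atf3* (chr1:191170296-191218039) are also neighbours. *Jun* (chr4:95049034-95052222), *Junb* (chr8:84974484-84978718) and *Jund* (chr8:70698949-70700616) are single-exon genes, which are counted from the same bases whether or not the RNA is spliced. Each of these overlaps a gene on the opposite strand, *Junos*, *Prdx2* and *Gm11175* respectively. *Fosb* lies at chr7:19302696-19310051 and *Fosl2* at chr5:32135801-32157842.

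The 250 bases before the RefSeq start are printed for the 5 genes that were positively correlated with each other over cells (*Fos*, *Fosb*, *Junb*, *Jun* and *Jund*) and for *Batf*, which was not correlated with them. The RefSeq start is not always the GENCODE start given above. For *Jund* and *Junb* it lies upstream of it, and for *Batf* and *Fosb* inside the GENCODE gene, so their last printed bases lie inside that gene. It also lies inside the GENCODE gene for *Atf3*, *Fosl2* and *Batf3*, which are not printed. The *Atf3* window is chr1:191183334-191183583. The printed bases read 5′ to 3′ on the strand of the gene. Capitals mark TGACG, the core shared by cyclic AMP response elements, and TGACATCA, an AP-1 element known from the *Jun* promoter.
*Fos* (GRCm38.p6, chr12:85473640-85473889, plus strand): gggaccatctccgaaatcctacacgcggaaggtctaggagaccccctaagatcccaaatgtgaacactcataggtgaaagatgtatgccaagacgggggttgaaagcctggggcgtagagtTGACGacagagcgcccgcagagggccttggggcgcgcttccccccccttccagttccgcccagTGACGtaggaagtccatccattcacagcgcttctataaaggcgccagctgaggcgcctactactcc
*Fosb* (GRCm38.p6, chr7:19310046-19310295, minus strand): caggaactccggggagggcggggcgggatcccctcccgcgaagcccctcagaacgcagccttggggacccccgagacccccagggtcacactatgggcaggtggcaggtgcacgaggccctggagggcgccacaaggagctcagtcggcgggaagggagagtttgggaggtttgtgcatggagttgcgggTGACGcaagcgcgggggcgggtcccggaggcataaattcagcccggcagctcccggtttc
*Junb* (GRCm38.p6, chr8:84978749-84978998, minus strand): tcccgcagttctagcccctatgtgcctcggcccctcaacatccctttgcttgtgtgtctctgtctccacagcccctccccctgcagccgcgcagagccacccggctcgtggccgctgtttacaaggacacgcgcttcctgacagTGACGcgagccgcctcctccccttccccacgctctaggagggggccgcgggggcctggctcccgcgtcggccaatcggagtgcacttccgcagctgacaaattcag
*Jun* (GRCm38.p6, chr4:95052223-95052472, minus strand): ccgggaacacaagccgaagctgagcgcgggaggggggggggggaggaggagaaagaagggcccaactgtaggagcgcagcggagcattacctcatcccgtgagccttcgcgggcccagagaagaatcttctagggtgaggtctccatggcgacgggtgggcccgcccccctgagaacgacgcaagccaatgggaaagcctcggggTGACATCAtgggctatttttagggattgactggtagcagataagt
*Jund* (GRCm38.p6, chr8:70697489-70697738, plus strand): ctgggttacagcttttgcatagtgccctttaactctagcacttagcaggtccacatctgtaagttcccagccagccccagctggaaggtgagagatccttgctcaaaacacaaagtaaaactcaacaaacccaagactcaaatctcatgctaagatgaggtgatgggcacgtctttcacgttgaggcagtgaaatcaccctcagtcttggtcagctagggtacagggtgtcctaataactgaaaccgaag
*Batf* (GRCm38.p6, chr12:85686470-85686719, plus strand): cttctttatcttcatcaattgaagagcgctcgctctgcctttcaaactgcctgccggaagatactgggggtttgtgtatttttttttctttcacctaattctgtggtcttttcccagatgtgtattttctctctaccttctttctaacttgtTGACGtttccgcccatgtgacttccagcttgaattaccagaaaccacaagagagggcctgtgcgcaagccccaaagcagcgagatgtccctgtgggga

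The core TGACG or its reverse CGTCA was found in this window of 5 of the 9 genes, *Fos* (129 and 66 bases before the start), *Fosb* (60 bases), *Junb* (106 bases), *Atf3* (7 bases) and *Batf* (98 bases). Of all 32851 RefSeq promoter windows 17.8% hold it. The windows of *Jund*, *Fosl2* and *Batf3* held none of the motifs searched. TGACATCA or its reverse TGATGTCA was found in *Jun* alone among the 9, 45 bases before the start, and in 2.93% of all windows. The full palindrome TGACGTCA, the AP-1 motif TGACTCA (reverse TGAGTCA) and the CArG box bound by serum response factor were found in none of the 9 windows, and in 1.55%, 4.46% and 1.47% of all windows. The motifs overlap in that TGACGTCA contains TGACG on both strands. Only these 250 bases were searched, so a motif further upstream or after the start would be missed. A match is a stretch of letters only, and no binding was measured.

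The values below rest on 2456 NC cells with 27815785 UMIs and 2289 WD cells with 28705830 UMIs, after cells of high mitochondrial share (from 7.5%) or very many UMIs (from 50000) had been set aside. UMIs are molecular tags counted once per captured RNA, and levels are given as CPM, the UMIs of a gene per 1000000 UMIs of the cells summed. Capture was at the 3′ end with 1 count per molecule, so CPM was not divided by gene length. The median cell held 7958 UMIs in NC and 9103 in WD, with a mitochondrial share of 2.10% and 2.64%. Cd3, *Trac* and Cd8 transcripts, all 6 detected, summed to 5722 CPM in NC and 5009 CPM in WD, and melanoma, B cell, CD4 and NK or gamma-delta markers each summed to under 5 CPM. Myeloid markers summed to 19.6 and 16.7 CPM, dendritic-like markers to 98.6 and 206 CPM, and hemoglobin transcripts to 0 CPM in NC and 320.2 CPM in WD. Of the 9193 hemoglobin UMIs in WD, 9157 came from 1 cell, which lies in cluster 4 below. The libraries shared 4 cell barcodes. With 1 library per diet there is no replicate and no test between diets, every interval is a 95% interval that covers counting error only, and diet cannot be told apart from library. In summed counts, fewer cells with a transcript and less transcript per cell also cannot be told apart, which is why shares of cells are given separately.

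Over all cells *Junb*, *Fos*, *Fosl2*, *Atf3*, *Fosb* and *Jun* stood higher in the WD library, *Jund* slightly lower and *Batf* level. *Junb*, a Jun protein with a weaker activation domain than JUN, was counted at 1039 CPM in NC and 1848 CPM in WD, a 1.78-fold difference (log2 0.83, 95% interval 0.81 to 0.85). *Fos*, the founding partner of the Jun proteins, was counted at 315 CPM and 500.3 CPM (1.59-fold, log2 0.67, 0.63 to 0.70). These 2 carried most of the added AP-1 transcripts. The 9 genes summed to 95940 UMIs, or 0.345% of the NC library, and to 130988 UMIs, or 0.456% of the WD library.

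The remaining Fos group genes stood higher in WD too. *Fosb*, whose short splice form ΔFosB is a long-lived product, was counted at 214 CPM in NC and 307 CPM in WD (log2 0.52, 0.47 to 0.57). *Fosl2*, encoding FRA2, was the scarcest of the 8 genes above 10 CPM, at 19.9 and 30.5 CPM (log2 0.62, 0.46 to 0.77). Its interval overlaps that of *Fos*, so the order of these ratios cannot be read.

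Within the Jun group the genes parted. *Jun* was counted at 389.6 CPM in NC and 489 CPM in WD (log2 0.33, 0.29 to 0.36), a smaller ratio than that of *Junb*. *Jund*, the member least dependent on stimulation in most cells, was counted at 1345 CPM in NC and 1245 CPM in WD (log2 -0.11, -0.13 to -0.09). *Jund* was thus the most abundant AP-1 transcript in NC and *Junb* in WD.

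Of the ATF and BATF genes only *Atf3*, a stress-induced repressor and activator, stood higher in WD, at 38.2 and 56.4 CPM (log2 0.56, 0.45 to 0.68). *Batf* was counted at 88.5 CPM in NC and 86.1 CPM in WD (log2 -0.04, -0.12 to 0.04), an interval that includes no difference. *Batf3*, which is required for cross-presenting dendritic cells, had 3 UMIs in the NC library and 10 in the WD library, a ratio of 3.23 with a counting interval of 0.832 to 18.3.

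The order of levels in NC was *Jund*, *Junb*, *Jun*, *Fos*, *Fosb*, *Batf*, *Atf3*, *Fosl2* and *Batf3*, and no neighbours in it had overlapping counting intervals. In WD *Junb* stood above *Jund* and *Fos* above *Jun*, but the intervals of *Fos* (492 to 509 CPM) and *Jun* (481 to 497 CPM) overlapped.

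A fold of 1.5 was used to count differences in place of a test. It was passed upwards by 3 of the 8 AP-1 genes with at least 10 CPM, *Junb*, *Fos* and *Fosl2*, while 1.66% of the 7064 genes at that level passed it. None of the 8 passed it downwards, against 1.32% of all genes. The median log2 ratio was 0.56 over the 9 genes, 0.54 over the 8 with at least 10 CPM and 0.035 over the 7064 genes at that level. *Junb* had the 42nd highest ratio of the 7064.

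**Figure D1:**
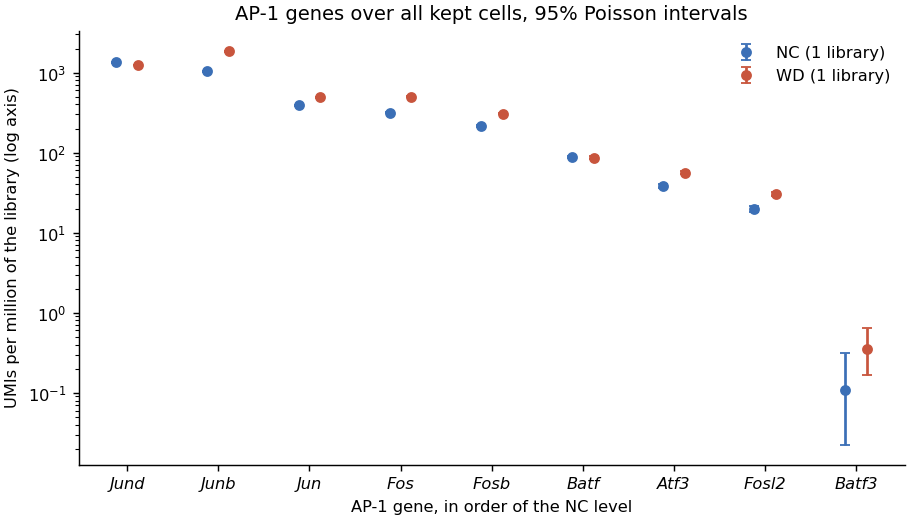
Level of each AP-1 gene in the NC and the WD library, in CPM on a log axis, with 95% Poisson intervals and genes ordered by the NC level. *Junb* goes from 1039 to 1848 CPM and *Fos* from 315 to 500.3 CPM, while the points of *Batf* lie on each other.

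Cell states were taken from clusters built without the AP-1 genes and without the other listed genes. Genes that move with them over cells were not left out, and *Klf2* and *Il7r* are among the 10 leading genes of cluster 2. Levels between clusters are thus not independent of how the clusters were made. Cluster 0 (471 NC and 716 WD cells) was interferon-stimulated-like, led by *Gzma*, *Ifit3* and *Ifit1*. Cluster 1 (479 and 575) was proliferating-like, cluster 2 (573 and 420) naive- or memory-like with *Lef1* and *Tcf7*, and cluster 3 (616 and 309) effector-like with *Gzmf*, *Gzmd* and *Gzme*. Cluster 4 (308 and 248) stayed unnamed, held 2310 UMIs in its median NC cell and 2285 in its median WD cell, and was led by the hemoglobin transcripts of that 1 WD cell and by *Gm26917* and *Lars2*. Cluster 5 (9 and 21 cells) was dendritic-like and too small for ratios.

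As a share of UMIs, *Fos* and *Junb* were low in the proliferating-like and effector-like clusters. They were high in the naive- or memory-like and interferon-stimulated-like clusters. The former were deeper, with 22242 UMIs in the median NC cell of the proliferating-like and 11170 of the effector-like cluster. The median was 7449 in naive- or memory-like and 5056 in interferon-stimulated-like NC cells. A lower CPM thus need not be a lower number of transcripts per cell. *Fos* had 1798 UMIs in 616 effector-like and 3010 UMIs in 573 naive- or memory-like NC cells, which is lower per cell too. *Junb* had 8315 UMIs in 309 effector-like and 10621 UMIs in 420 naive- or memory-like WD cells, which is not lower per cell. *Fos* in the NC library was counted at 669 CPM in naive- or memory-like and 641 CPM in interferon-stimulated-like cells, 295 CPM in the unnamed cluster, 218 CPM in effector-like and 164 CPM in proliferating-like cells. In the WD library the corresponding levels were 853, 855, 454, 378 and 304 CPM. The order by state was the same in both libraries except between the 2 highest, whose intervals overlapped.

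*Junb* in NC was counted at 2110 CPM in naive- or memory-like, 2245 CPM in interferon-stimulated-like, 949.9 CPM in unnamed, 751 CPM in effector-like and 564 CPM in proliferating-like cells. In WD it was counted at 3037, 3086, 2105, 1739 and 1119 CPM. *Junb* in naive- or memory-like over effector-like cells was 2.81-fold in NC and 1.75-fold in WD, so the states lay closer together in the WD library. The same ratio for *Fos* was 3.08-fold and 2.26-fold. *Jun* was also lower in effector-like than in naive- or memory-like cells, at 336 and 674 CPM in NC and at 436 and 937 CPM in WD. Its highest level among clusters 0 to 4 was in the unnamed cluster, at 818 CPM in NC and 971 CPM in WD. In WD its interval there (905 to 1041 CPM) overlapped that of naive- or memory-like cells (906 to 970 CPM).

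*Batf* ran the other way. In NC it was counted at 109 CPM in effector-like and 103 CPM in proliferating-like cells, 72.9 CPM in the unnamed cluster, 56.2 CPM in interferon-stimulated-like and 35.6 CPM in naive- or memory-like cells. In WD the levels were 116, 93.7, 68.5, 67.8 and 50.6 CPM in that order of states. *Batf* in naive- or memory-like over effector-like cells was 0.325-fold in NC and 0.436-fold in WD. In CPM, *Batf* was thus highest in the states in which *Fos* and *Junb* were lowest.

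*Fosb* and *Fosl2* shared with *Jun* the highest level in the shallow unnamed cluster, and stood further above the other clusters there. *Fosb* was counted there at 869 CPM in NC and 1069.8 CPM in WD, against 168 and 279 CPM in effector-like cells. *Fosl2* was counted there at 85.6 and 121 CPM, against 8.91 and 14.5 CPM in proliferating-like cells. The median mitochondrial share of that cluster was 3.48% in NC and 3.76% in WD, the highest of all clusters, and its part in these levels was not tested.

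*Jund* varied little over states in both libraries, and *Atf3* varied little in NC. *Jund* lay between 1125 and 1578 CPM over the 5 clusters in NC and between 1050.3 and 1518 CPM in WD. *Atf3* lay between 33.5 and 45.1 CPM in NC, and in WD between 44.1 CPM in interferon-stimulated-like and 79.3 CPM in unnamed cells. In the small dendritic-like cluster *Jun*, *Fos* and *Atf3* stood at 2417, 1299.98 and 467 CPM in NC and at 2003, 1402 and 305 CPM in WD. Of the 10 *Batf3* UMIs in WD, 8 lay in that cluster, and clusters 0, 2, 3 and 4 held none in either library.

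**Figure D2:**
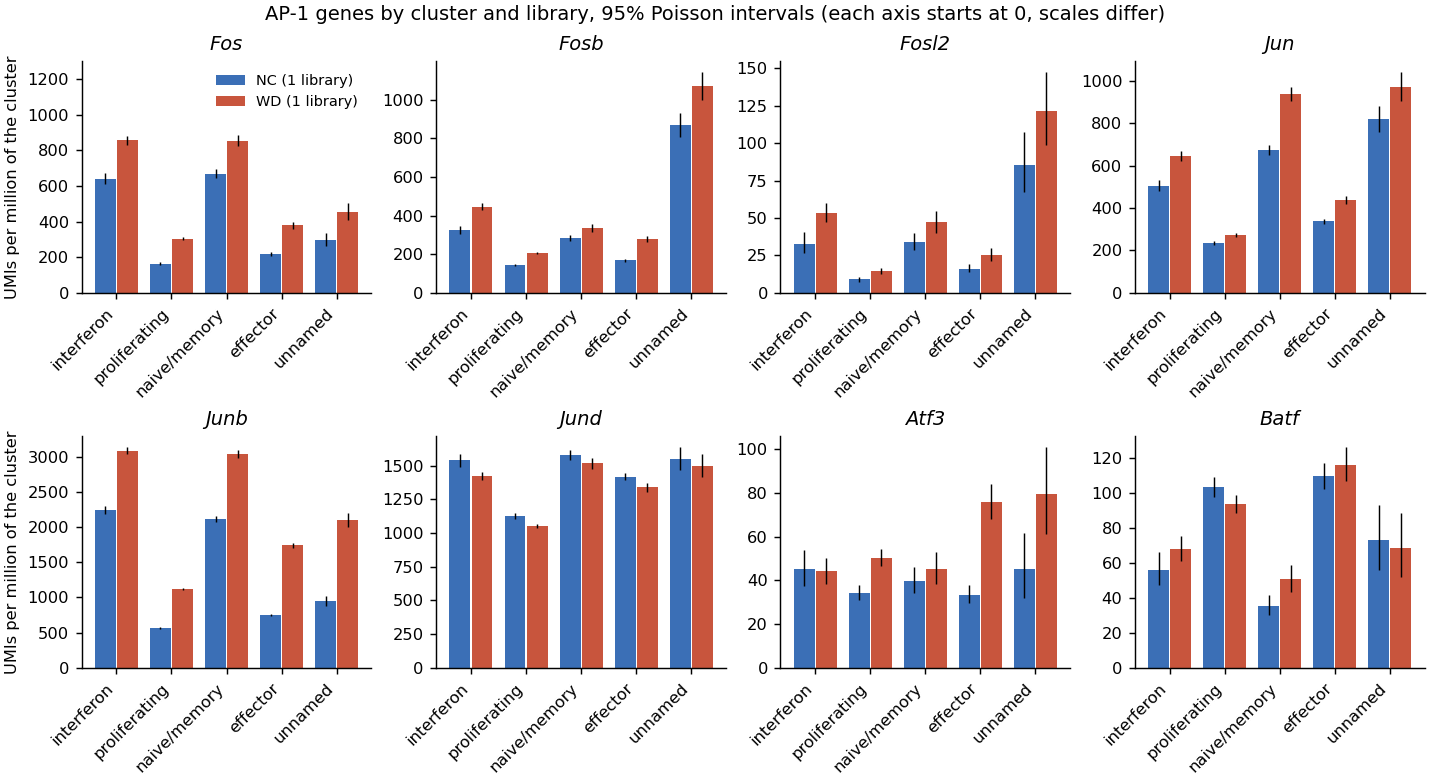
Level of 8 AP-1 genes in clusters 0 to 4 of each library, in CPM of the cluster with 95% Poisson intervals, each axis from 0. *Fos* and *Junb* bars are tall in interferon-stimulated-like and naive- or memory-like cells, *Batf* bars in proliferating-like and effector-like cells, and *Fosb* and *Fosl2* bars in the unnamed cluster.

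Within every one of these 5 clusters *Junb*, *Fos*, *Fosb*, *Fosl2* and *Jun* stood higher in the WD than in the NC library, with intervals above 0. Of all genes with at least 10 CPM, between 49.0% (unnamed) and 55.4% (effector-like) stood higher in WD in a cluster. The share of all genes with intervals above 0 was not computed. The ratio of *Junb* was largest in effector-like cells (2.31-fold, log2 1.21, 1.16 to 1.26), then in unnamed (log2 1.15) and proliferating-like cells (log2 0.99), and smaller in naive- or memory-like (log2 0.53) and interferon-stimulated-like cells (log2 0.46). *Fos* followed a similar order, from log2 0.89 in proliferating-like and 0.80 in effector-like cells to 0.42 in interferon-stimulated-like and 0.35 in naive- or memory-like cells. The states with the lowest NC levels had the larger ratios, as the closer WD levels above already imply. *Jun* was more even, from log2 0.21 in proliferating-like to 0.48 in naive- or memory-like cells.

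*Atf3* was 2.26-fold higher in effector-like WD cells, at 33.5 CPM in NC and 75.7 CPM in WD (log2 1.18, 0.95 to 1.41). In interferon-stimulated-like cells it was counted at 45.1 and 44.1 CPM (log2 -0.032, -0.36 to 0.30). *Jund* was between log2 -0.11 and -0.05 in the 5 clusters. *Batf* was lower in proliferating-like WD cells (log2 -0.14, -0.25 to -0.03) and higher in naive- or memory-like WD cells (log2 0.51, 0.19 to 0.83).

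Counted by the fold of 1.5, 5 of the 8 AP-1 genes stood higher in effector-like WD cells (*Junb*, *Atf3*, *Fos*, *Fosb* and *Fosl2*), where 6.3% of all genes passed. In proliferating-like cells 3 passed against 2.07% of all genes, and in the unnamed cluster 3 passed against 12.2%. In interferon-stimulated-like cells *Fosl2* alone passed, against 3.77%, and in naive- or memory-like cells none passed, against 3.61%. No AP-1 gene passed downwards in any of the 5 clusters, but the share of all genes that did was not computed there.

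The make-up of the AP-1 transcripts was thus unlike between libraries. In effector-like cells *Jund* made up 46.5% of the UMIs of the 9 genes in NC and 30.5% in WD, and *Junb* 24.6% and 39.6%. In naive- or memory-like cells *Jund* made up 29.1% and 22.2%, and *Junb* 38.9% and 44.5%. *Batf* was 3.59% and 2.64% of them in effector-like cells and 0.656% and 0.742% in naive- or memory-like cells.

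The mitochondrial share of a cell moved with both the AP-1 level and the library. When cells of both libraries were put into 3 bins of mitochondrial share with common cut points, NC had 1118, 758 and 580 cells from the lowest to the highest bin and WD had 464, 823 and 1002. The 9 genes summed to 2842, 3843 and 5076 CPM in the NC bins and to 4135, 4167 and 5246 CPM in the WD bins. The WD over NC log2 ratio of *Fos* was 1.01, 0.19 and 0.071 in these bins, and that of *Fosb* 0.65, 0.13 and 0.0019. *Jun* had log2 ratios of 0.40, -0.13 and -0.068, so its direction did not hold in the upper 2 bins. *Junb* stayed higher in WD, at log2 1.16, 0.43 and 0.26. *Jund* had -0.06, -0.21 and -0.21, and *Batf* -0.04, 0.23 and 0.33.

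Clusters are not spread evenly over these bins, so both were also held together. There were 11 groups of cells of 1 cluster and 1 bin with at least 50 cells in each library. *Junb* was higher in WD in 11 of 11, by log2 0.30 to 1.21, with an interval above 0 in each. *Fos* was higher in 10 of 11 (log2 -0.08 to 1.01), *Fosb* in 10 of 11 (-0.14 to 0.52) and *Jun* in 10 of 11 (-0.01 to 0.36), with intervals above 0 in 9, 9 and 6 groups. *Fosl2* was higher in 10 of 11 as well, but with an interval above 0 in 2 groups alone. *Atf3* was higher in 9 of 11, with intervals above 0 in 4 groups and below 0 in 1, the interferon-stimulated-like cells of the lowest bin (log2 -1.49, -2.25 to -0.77). *Batf* was higher in 9 of 10 groups, with intervals above 0 in 2 and below 0 in none. *Jund* was lower in WD in all but 2 of the 11, with intervals below 0 in 5 groups and above 0 in none. With the mix of clusters and bins set equal in both libraries, the log2 ratio was 0.73 for *Junb*, 0.49 for *Fos*, 0.33 for *Fosb* and 0.24 for *Jun*. The bins were chosen after the data were seen, and the share of all genes higher in WD in these groups was not computed.

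Depth moved with the ratios too, but depth also differed between clusters, and the bins of depth were not split by cluster. In 3 bins of UMIs per cell, again with common cut points, the log2 ratio of *Junb* was 0.52, 0.93 and 1.07 from the shallowest to the deepest cells, and that of *Fos* 0.53, 0.57 and 0.996. *Fosb* had 0.28, 0.62 and 0.71, and *Jun* 0.31, 0.40 and 0.41. *Atf3* had -0.21 (-0.56 to 0.13), 0.17 (-0.06 to 0.40) and 0.86 (0.72 to 1.01), so among these bins its interval lay above 0 in the deepest alone. In the shallow unnamed cluster *Atf3* was also higher in WD (log2 0.81, 0.22 to 1.42). After thinning of all cells to 2000 UMIs *Atf3* had a log2 ratio of 0.14, and after thinning to 1000 UMIs 0.39, in place of 0.56.

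**Figure D3:**
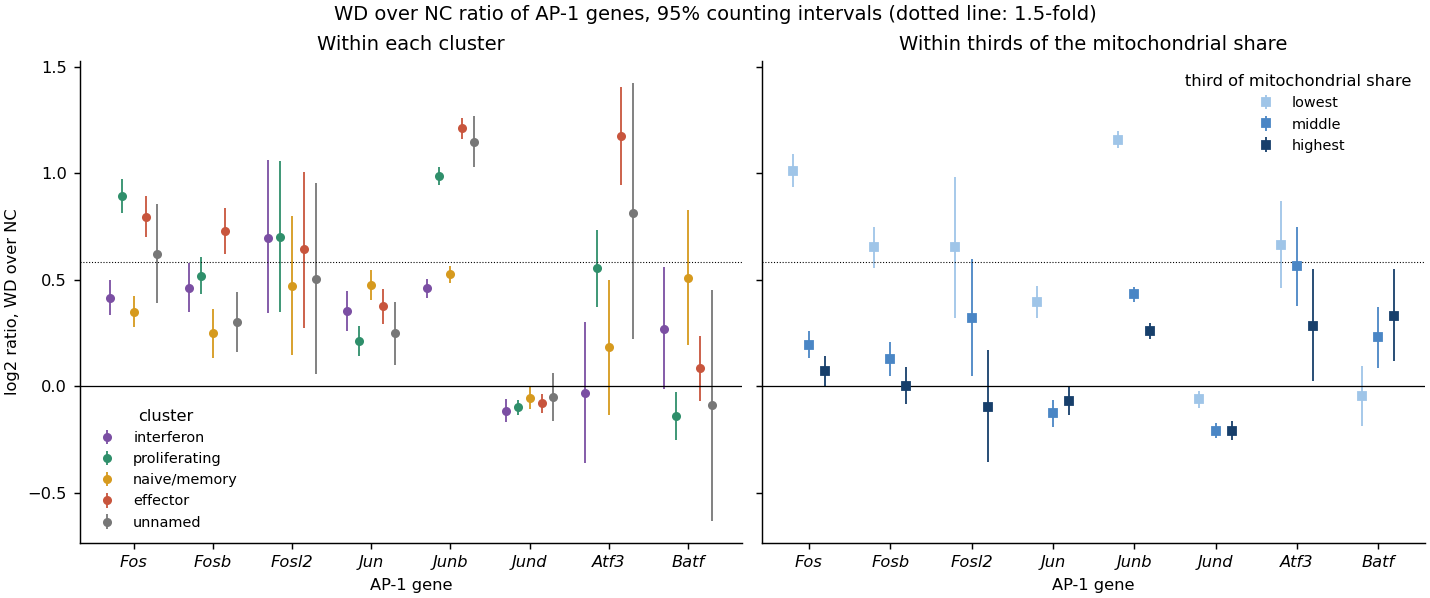
Log2 ratio of WD over NC for 8 AP-1 genes with 95% counting intervals, on the left within each of 5 clusters and on the right within 3 bins of mitochondrial share, with a dotted line at 1.5-fold. *Junb* lies above 0 in every group, from 0.46 to 1.21 over clusters and from 0.26 to 1.16 over bins, while *Jun* lies below 0 in the upper 2 bins.

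For the spread over cells the unequal depth was removed by drawing 2000 UMIs at random from each cell, and 126 NC and 112 WD cells with fewer were left out. *Jund* was found in 89.2% of thinned NC cells and 89.8% of WD cells. *Junb* was found in 76.6% (95% Clopper-Pearson interval 74.8% to 78.3%) and 90.9% (89.6% to 92.1%), and *Fos* in 45.2% (43.2% to 47.2%) and 56.3% (54.2% to 58.4%). Neither pair of intervals overlaps, but they cover only the draw of cells from 1 library per diet, not the spread between mice or libraries. The share of all genes whose intervals do not overlap was not computed. The libraries also differ in their mix of clusters. *Jun* was found in 48.8% and 52.5%, *Fosb* in 35.8% and 44.1%, *Batf* in 12.8% and 13.1%, *Atf3* in 6.44% and 7.44%, and *Fosl2* in 5.75% and 7.85% of cells. *Batf3* was found in 1 thinned cell of each library. Without thinning *Junb* was found in 94.99% and 98.4% and *Fos* in 77.1% and 86.5% of cells.

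As a reference for free RNA, the melanoma transcript *Pmel* was found in 0 of 2330 thinned NC cells and 0 of 2177 WD cells, and the B cell transcript *Cd79a* in 0.172% and 0.184%. No cell type in these libraries is known to lack the AP-1 genes, so their own background was not measured.

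AP-1 counts were more uneven over cells than counting alone gives. The Fano factor, the variance over the mean, is 1 for pure counting. It was 3.82 in NC and 3.31 in WD for *Junb*, 2.39 and 3.18 for *Fos*, 2.54 and 2.97 for *Jun*, 1.90 and 2.02 for *Fosb*, 2.30 and 1.99 for *Atf3* and 1.81 and 1.71 for *Jund*. *Batf* had 1.13 and 1.10 and *Fosl2* 1.12 and 1.19, close to the median of 1.05 over all genes in both libraries. A Fano factor of at least 1.5 was reached by 6 of the 8 AP-1 genes in each library, against 4.83% of all genes in NC and 4.71% in WD. The factor grows with the mean, so these shares also reflect how abundant the genes are. *Junb* and *Jund* had nearly equal means in NC (2.94 and 2.98 UMIs per thinned cell) with unequal factors. These factors pool all states and thus hold differences between them. Within clusters 0 to 4 of NC the factor of *Junb* ran from 1.79 (proliferating-like) to 3.80 (interferon-stimulated-like). That of *Jund* ran from 1.27 (proliferating-like) to 2.05 (unnamed). The coefficient of variation above Poisson counting, a spread relative to the mean, had a median of 0.737 over all genes in NC and 0.703 in WD. *Jund* lay below it, at 0.52 and 0.50. *Junb* had 0.979 and 0.696, and the other members with at least 10 CPM lay above the median in both libraries.

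The shape of the spread differed between members. *Junb* was counted 5 or more times in 23.5% of thinned NC cells and 43.9% of WD cells, and its median cell held 2 UMIs in NC and 4 in WD. *Jund* was counted 5 or more times in 20.6% and 18.9% of cells. For *Fos* these shares were 3.30% and 5.47%, and the 10% of cells with the most *Fos* held 48.0% and 44.1% of its UMIs. *Atf3* was seen in few cells but reached 10 UMIs in a thinned NC cell and 9 in a WD cell, while *Batf*, with a higher mean, reached 3 and 4. Within effector-like cells *Junb* was found in 68.7% of thinned NC cells and 90.9% of WD cells, and within naive- or memory-like cells in 92.8% and 97.6%.

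**Figure D4:**
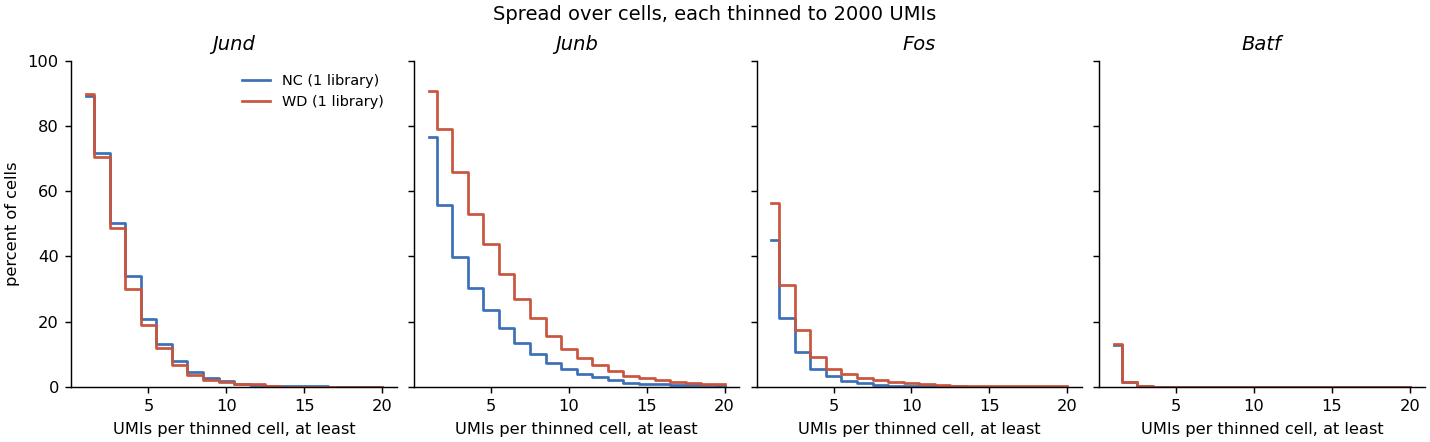
Percent of cells, each thinned to 2000 UMIs, with at least the number of UMIs on the horizontal axis, for *Jund*, *Junb*, *Fos* and *Batf*. The curves of the libraries lie together for *Jund* and *Batf*, while the WD curve of *Junb* lies higher, with 43.9% of WD and 23.5% of NC cells at 5 or more UMIs.

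Over cells of 1 library, *Fos*, *Fosb*, *Jun*, *Junb* and *Jund* were positively correlated with each other, and *Batf* stood apart. All cells here share a library and a depth after thinning, and the counts are sparse, so Pearson's r over log2(UMIs + 1) is given as a description. *Fos* and *Junb* had the highest r of the 28 pairs of 8 genes, 0.37 over 2330 NC cells and 0.35 over 2177 WD cells. They were seen together in 38.5% of NC cells, where the product of their shares gives 34.6%, and in 53.1% of WD cells, where it gives 51.2%. Other pairs of the 5 genes ranged from 0.16 (*Fosb* with *Jund*) to 0.24 in NC and from 0.17 to 0.25 in WD. The median over all 28 pairs was 0.084 in NC and 0.057 in WD.

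The 7 pairs with *Batf* lay between -0.06 and -0.01 in NC and between -0.05 and 0.00 in WD. *Fosl2* and *Atf3* lay between, with *Fos* at r of 0.11 and 0.10 in NC and 0.01 and 0.02 in WD. When each gene was centred within its cluster, so that differences between states no longer counted, *Fos* with *Junb* had r of 0.23 and 0.26 and the pairs of *Batf* with *Fos* 0.01 and 0.01.

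**Figure D5:**
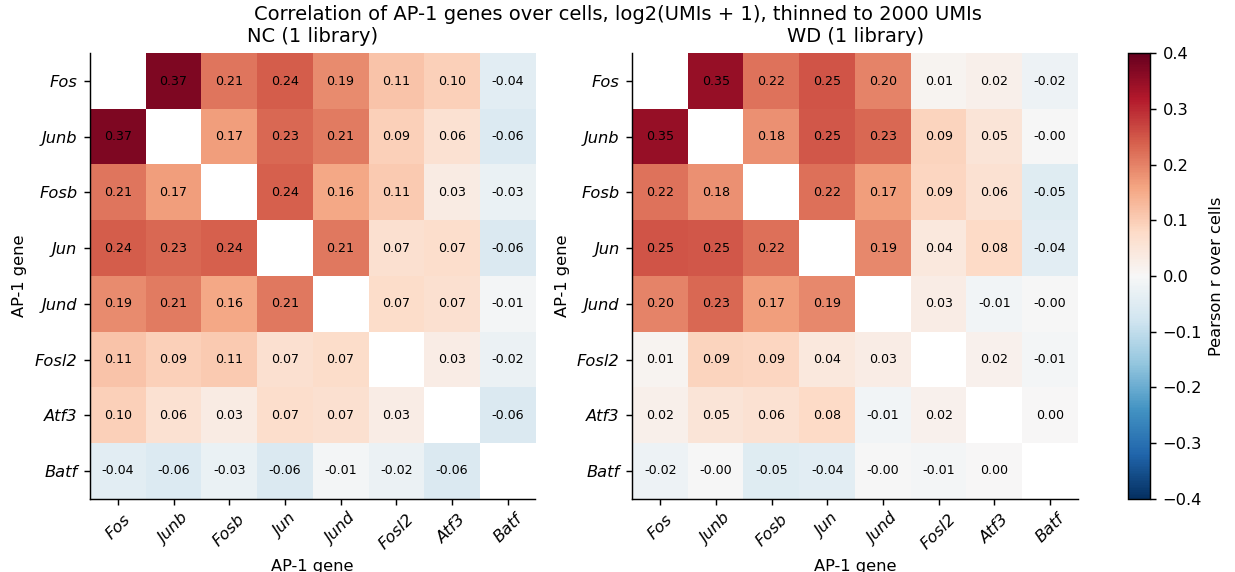
Pearson's r over cells between 8 AP-1 genes in the NC library (left) and the WD library (right), each cell thinned to 2000 UMIs. The 5 genes in the upper left block correlate with each other, most of all *Fos* with *Junb* (0.37 and 0.35), and the *Batf* row is near 0.

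Likeness to other genes was measured by the mean over both libraries of r centred within clusters, among 3917 genes other than the gene itself, each seen in at least 5% of thinned cells of each library. Ranked in this way, the gene most like *Fos* was *Junb* (r of 0.25), followed by *Fosb*. The gene most like *Junb*, *Fosb* and *Jun* was *Fos* in each case, and the 4 genes most like *Jun* were *Fos*, *Fosb*, *Junb* and *Jund*. *Jund* was most like *Junb* (r of 0.18). *Batf* ranked 1177th for *Fos* and 622nd for *Junb*.

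Among genes outside the 9, *Fos* was most like *Zfp36* (r of 0.18), whose protein destabilises AU-rich transcripts, *Dusp1* (0.17), a phosphatase of MAP kinases, and *Malat1* (0.14), a nuclear noncoding RNA. *Fosb* shared these 3, in the order *Dusp1*, *Malat1* and *Zfp36*. *Junb* was most like *Nfkbia* (0.20), the inhibitor of NF-κB, *Zfp36* (0.19) and *Ier2* (0.18). *Jun* was most like *Klf2*, *Ppp1r15a* and *Klf6*, and *Jund* most like *Btg1*, *Klf2* and *Malat1*, at r of 0.12 to 0.15. *Fosl2* (with *Tnfaip3*, *Pnrc1* and *Il7r*), *Atf3* (with *Nfkbia*, *Klf6* and *Cd44*) and *Batf* (with *Ciao2b*, *Mrps11* and *Psmb4*) had no r above 0.08.

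The rest of the pathway was read from fixed lists, which were chosen with earlier results of these data known. Of each list, the genes with at least 10 CPM that passed the fold of 1.5 were counted, against the 1.66% and 1.32% of all genes given above. Of 10 kinases and factors upstream of AP-1 none passed in either direction, with a median log2 ratio of -0.07. *Mapk8*, encoding the kinase JNK1, was counted at 8.38 CPM in NC and 10.9 CPM in WD (log2 0.38), *Mapk3* (ERK1) at 30.6 CPM in both (log2 -0.00), *Map2k1* (MEK1) at 29.4 and 26.4 CPM (log2 -0.16) and *Map2k4* at 19.3 and 17.9 CPM (log2 -0.11). These are transcript levels and say nothing of kinase activity.

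Of 5 partners of AP-1 dimers 1 passed downwards, *Irf8*, counted at 178 CPM in NC and 110.2 CPM in WD (log2 -0.69, -0.76 to -0.63). *Irf4*, the best known partner of BATF, was at 16.4 and 15.4 CPM (log2 -0.08). *Nfatc3* and *Nfatc2* had log2 ratios of 0.10 and 0.08. Of 16 other bZIP genes only *Maf* passed, upwards, at 14.4 and 26.1 CPM (log2 0.85), and the median was 0.14. *Mafk* had a log2 ratio of 0.39, *Atf6* of -0.40 and *Nfil3* of -0.37.

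Some of the genes that dampen the pathway and of the other immediate early genes stood higher in WD. Of 9 feedback genes 3 passed the fold, and all 9 had ratios above 0 (median log2 0.43), as had 57.7% of all 7064 genes. *Zfp36* was counted at 110.5 CPM in NC and 199.6 CPM in WD (log2 0.85) and *Dusp1* at 149.9 and 259 CPM (log2 0.79), while *Dusp10* and *Dusp4* had log2 ratios of 0.18 and 0.03. Of 12 other immediate early genes 6 passed and 11 were above 0 (median log2 0.54). *Ier3* was counted at 21.2 and 41.3 CPM (log2 0.96) and *Nr4a1*, an antigen receptor response gene, at 27.6 and 47.4 CPM (log2 0.78), while *Klf6* had a log2 ratio of 0.13 and *Myc* of -0.03. *Egr2* and *Egr3* of the same list stayed below 10 CPM in both libraries and are not in these counts. *Egr3* was lower in WD, at 8.05 and 4.95 CPM (log2 -0.70, -1.02 to -0.39), and *Egr2* had a log2 ratio of -0.004.

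Of 10 heat shock genes 2 passed upwards. *Hspa1b* was counted at 7.26 CPM in NC and 24.6 CPM in WD (log2 1.76) and *Hspa1a*, a near-identical copy between which reads may be split, at 10.6 and 19.0 CPM (log2 0.84). *Dnaja1* and *Hsph1* both had log2 ratios of -0.02, and the median of the list was 0.15. The part of cell handling in the levels of the immediate early and heat shock genes was not tested.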

How the data were processed

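CD8+ TIL were measured as 1 10x 3′ library per diet. The authors made the counts of UMIs per gene and cell with Cell Ranger 6.0.2 on mm10, per the submitters' processing notes, and deposited these counts without normalization. The analysis here used Python 3.11.15 (numpy 2.4.6, scipy 1.17.1, pandas 2.3.3, scanpy 1.11.5, matplotlib 3.10.9) and R 4.3.3. Cells were required to have a mitochondrial share below 7.5% and between 500 and 50000 UMIs. CPM was the sum of a gene's UMIs in a group of cells, relative to the total of the group. Intervals are exact Poisson (CPM), Clopper-Pearson (shares) and exact conditional binomial (ratios), at 95%. Since each diet is a single library, diets were not tested against each other.

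Both libraries were clustered together with Seurat 5.3.0 (2000 variable genes without 80 listed genes, 20 principal components, 20 neighbours, resolution 0.15, the lowest giving 6 clusters). A cluster was named when at least 3 markers of a fixed T cell state or dendritic-like list were among its top 10 genes by fold. The red cell list could not give a name, though cluster 4 had 4 of its markers there. Ratios were given for clusters with at least 50 cells in each library, a limit set after seeing the data. Doublets were not removed, since Scrublet marked 2 NC cells and 0 WD cells, and leaving out its highest scores was an alternative. The steps were tested on simulated data.

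The members and gene lists were chosen with earlier results of these data known. Named genes are the 9 members, the 2 highest and 2 lowest ratios of each list among genes with at least 10 CPM, and for each member the 3 most correlated other genes. *Egr2* and *Egr3*, below that level, were named in addition. Leading genes of clusters serve as description only. *Ddit3*, which has 2 identifiers, was left out of its list. Sequences are RefSeq promoters (GRCm38.p6), found for all 9 members, and positions are from GENCODE M21, which held 99.6% of the gene identifiers. Alternatives were other scalings (TMM of edgeR 4.0.16 among them), depths, filters on cells, clusterings, folds and correlation measures.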

Additional observations from a re-analysis of the deposited data

Results flagged for a closer look

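*Batf* had ratios of opposite direction in 2 clusters taken whole. Its log2 ratio of WD over NC was -0.14 in the proliferating-like cluster 1, with a 95% counting interval of -0.25 to -0.03, and 0.51 in the naive- or memory-like cluster 2, with an interval of 0.19 to 0.83. This difference was not tested, as each diet has 1 library. Within bins of mitochondrial share, added after seeing the data, the lower level in cluster 1 was not seen, with log2 ratios of -0.020 (-0.21 to 0.16) in the lowest and 0.025 (-0.18 to 0.23) in the middle bin. In cluster 2 the ratios were 0.16 (-0.53 to 0.81) in the middle and 0.50 (0.086 to 0.93) in the highest bin.

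The AP-1 genes were also counted in cells that the limits left out. In cells with 7.5% or more mitochondrial UMIs (158 NC and 213 WD cells), the 9 genes summed to 4325 CPM in NC and 5208 CPM in WD, a log2 ratio of 0.27 (0.18 to 0.36). In cells with 50000 or more UMIs (83 and 121 cells) they summed to 2569 and 2881 CPM, a log2 ratio of 0.17 (0.14 to 0.19). *Batf3* had 34 NC and 50 WD UMIs in these deepest cells, more than in all kept cells together. *Atf3* was counted there at 56.0 CPM in NC and 48.8 CPM in WD (log2 -0.20, -0.40 to 0.01), and *Junb* at 560.3 and 958 CPM (log2 0.77).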

How the results depend on the processing

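No paired analysis was possible because each diet has 1 library. The median log2 ratio of the AP-1 genes stayed above 0 under all 18 other settings (0.37 to 0.68), and no member passed 1.5-fold downwards in any of 20. The share of all genes passing downwards was 1.32% as reported and was not computed under the other settings. The median, 0.56 as reported, was 0.37 as a mean over cells of per-cell CPM, 0.43 and 0.39 with cells thinned to 2000 and 1000 UMIs, and 0.38, 0.41, 0.68 and 0.40 in clusters 0, 2, 3 and 4 alone. The count of members 1.5-fold higher was 3 as reported, against 1.66% of all genes. It was 1 as a mean over cells (1.83% of all genes), 1 after thinning to 2000 UMIs (3.14%) and 1 in all deposited cells (1.39%). In clusters 0, 2 and 3 it was 1 (3.77%), 0 (3.61%) and 5 (6.3%). At a difference of 25% it was 6 and at a fold of 2 it was 0, and the shares of all genes were not computed there. *Junb*, *Fos*, *Fosb*, *Fosl2* and *Jun* were above 0 under all 17 settings for single genes, and *Jund* below 0 in all 17. *Atf3* was above 0 in 16 and -0.032 in cluster 0 alone, and *Batf* changed sign between settings (-0.14 to 0.51).

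In bins of mitochondrial share, added after seeing the data, the count of members was 5, 0 and 0 from the lowest to the highest bin. The shares of all genes past the fold there were 4.15%, 2.65% and 4.04%. With the mix of clusters and bins set equal the count was 1, against 1.13% of all genes. The median was 0.23 and 0.071 in the middle and highest bins. *Jun* was -0.13 and -0.068 in these 2 bins, and *Fosl2* -0.10 in the highest. The cause was not tested.

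The median correlation (0.084 in NC and 0.057 in WD as reported) was 0.042 for NC after thinning to 1000 UMIs and 0.11 for WD without thinning. The median Fano factor of 8 members was 2.05 at 2000 UMIs and 1.55 at 1000. The summed level in the highest over the lowest cluster was 2.23-fold, and 2.51-fold at the default resolution of 0.8, where *Junb* and *Fos* were higher in WD in 9 of 9 clusters with enough cells. TMM scaling moved the median of all genes from 0.035 to -0.011. Depth limited *Fosl2*, *Atf3* and *Batf* within clusters, and *Batf3* everywhere. Cluster 5 gave no value alone.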
